A study of Mus musculus with 30 samples.

Results

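A set of 10 genes of RANK, CD40, lymphotoxin and noncanonical NF-kB signalling was followed through RNA-seq of mouse medullary thymic epithelial cells (mTECs). Some of them carry these signals, and others (Tnfrsf11b, Traf3 and Tnfaip3) restrain RANK or NF-kB signalling. The members were the listed genes Tnfrsf11a, Cd40, Ltbr, Tnfrsf11b, Traf6, Traf3, Map3k14, Nfkb2, Relb and Tnfaip3, taken by symbol. All 10 were found among the 55011 genes of the mTEChi count files and among the 35999 gene symbols to which the B6 Aire-GFP+ transcript files were summed. All 10 passed the filter on low counts in both sets, in which 18418 and 17923 genes were tested.

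RANK and CD40 are receptors of the tumour necrosis factor family on the surface of mTECs, and developing T cells and lymphoid tissue inducer cells present their ligands. At rest TRAF3 keeps the kinase NIK short-lived. When a receptor is engaged, NIK builds up and has p100 cut to p52, which enters the nucleus with RelB. Mice without NIK or RelB have a poorly formed medulla with few Aire-expressing mTECs.

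The study asked how Aire, the regulator that lets mTECs transcribe genes of peripheral tissues, chooses its targets. All mice behind the libraries used here were female C57BL/6J of 4 to 6 weeks, and each library was made from 1000 sorted cells by Smart-seq2, an oligo(dT)-primed protocol without strand or molecular identifiers. The mTEChi cells, as the labels name them, came in 8 groups of 2 libraries. They were Aire-KO with spermidine, Aire-KO with PBS, WT with spermidine, WT with PBS, WT with topotecan, WT with DMSO, Foxn1-cre with Nfe2l2 fl/fl, and Foxn1-cre with Nfe2l2+/+. Treatments were intraperitoneal injections whose doses and times the labels do not state, and the labels give none for the Nfe2l2 groups. Both Nfe2l2 groups carried Foxn1-cre, which is active in the thymic epithelium and so in cortical cells as well as mTECs. Aire-GFP+ mTECs with no treatment in the labels, sorted on a GFP reporter of Aire, came from Aire-KO mice (2 libraries) and WT mice (3 libraries). Nothing in the labels ties libraries to separate animals, so p-values measure the spread between libraries, which may be technical.

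The B6 Aire-GFP+ libraries held 6577405 to 12613034 counts on named genes and the mTEChi libraries 2027205 to 5724045. The 8 mTEC markers checked (among them H2-Aa, Epcam, Krt5, Krt8, Aire and Fezf2) were summed in each library. The sums were 7643 to 20651 CPM (counts scaled to a fixed library total) in mTEChi and 12668 to 26185 CPM in Aire-GFP+ cells. The Aire transcript did not check the genotype, since the sources used here do not describe the allele and a count over a whole gene includes any RNA it still makes. Aire had 5075, 4156, 4096 and 4126 CPM in Aire-KO mTEChi, against 1621, 1638, 1691 and 1814 CPM in WT mTEChi, and 1508 and 1774 CPM in Aire-KO Aire-GFP+ cells, against 1603, 1686 and 1671 CPM in WT Aire-GFP+ cells. Aire-KO libraries held fewer detected symbols, 24506 to 26537 against 26906 to 29547 in WT of the same mTEChi experiment, and 21182 and 21187 against 22901 to 23880 in WT Aire-GFP+ cells. The genotype therefore rests on the labels.

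Levels were compared between genes only per length, as TPM (transcript abundance per length, scaled to a fixed total in each library) in the B6 Aire-GFP+ libraries. Cd40 stood first among the 10 genes in both genotypes, at 505 ± 53.4 TPM in Aire-KO (SD, n = 2) and 488 ± 37.4 TPM in WT (SD, n = 3). Relb followed, at 127 ± 7.21 TPM in Aire-KO and 200 ± 29.6 TPM in WT. Tnfrsf11b (65.6 TPM in Aire-KO, 111 TPM in WT), Nfkb2 (62.2 TPM in Aire-KO, 108 TPM in WT) and Tnfrsf11a (57.3 TPM in Aire-KO, 40.3 TPM in WT) formed a middle tier. Map3k14 had 16.9 TPM in Aire-KO and 15.9 TPM in WT, and Traf6, Traf3, Tnfaip3 and Ltbr stayed under 10 TPM on average in both genotypes. In WT the ranges of Tnfrsf11b and Nfkb2 overlapped, as did those of Traf3 and Traf6 and those of Tnfaip3 and Ltbr. These TPM values rank genes within libraries and were not used to compare genotypes, because TPM carries no scaling for a shift in RNA composition between libraries.

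**Figure D1:**
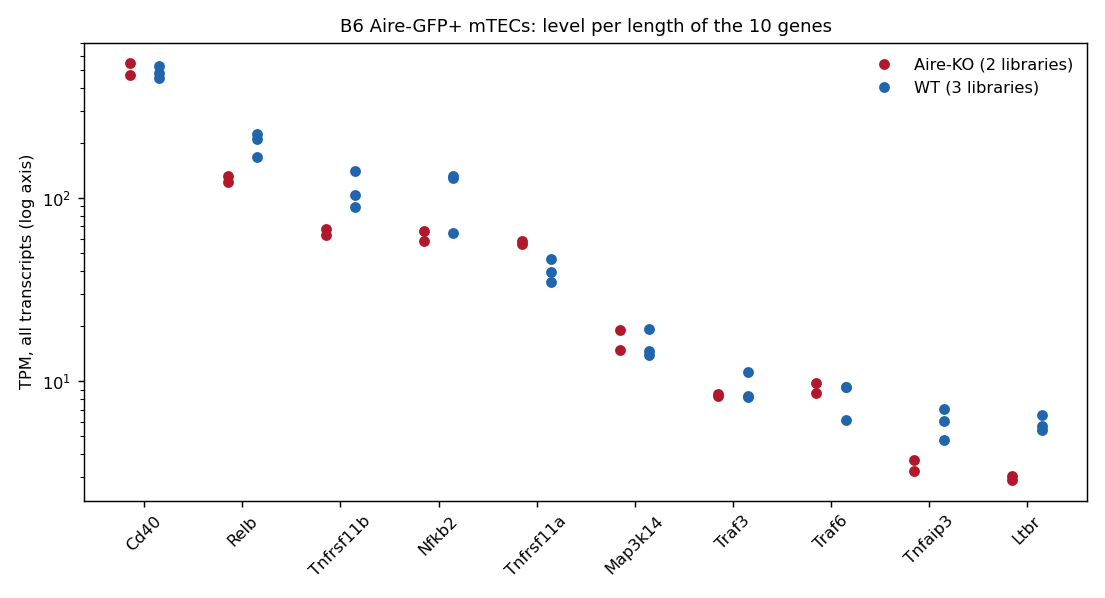
TPM of the 10 genes in each B6 Aire-GFP+ library (log axis), with Aire-KO points left of WT points. Cd40 lies near 500 TPM in both genotypes. Ltbr has the lowest mean, with 2.96 TPM in Aire-KO and 5.88 TPM in WT, where Tnfaip3 overlaps it with a mean of 5.94 TPM.

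For 7 of the 10 genes a promoter window was at hand in RefSeq (build GRCm38.p6), reaching from 250 bases before to 50 bases after an annotated start. The kappaB letters (GGG, any 5 bases, then CC), a loose form of the sequence that NF-kB dimers bind, were searched on both strands, with overlapping matches counted. All 10 windows of these 7 genes held a match, but so did 50.8% of all 32851 windows of that length, so that the letters alone are common. The Z-forming repeat CGCGCGCG occurred in 1 of the 7 genes, Traf3, and in 2.45% of all windows, and a CA repeat of 10 bases in 0 of the 7 genes and 1.61% of all windows. The windows of 4 genes are shown, for a receptor that rose in both kinds of Aire-KO mTECs (Tnfrsf11a), the gene with the CG repeat (Traf3), the gene of p100 (Nfkb2, the first of its 3 windows) and the inhibitor A20 (Tnfaip3, the first of its 2 windows). They lie at chr1:105780473-105780772 (plus strand), chr12:111166120-111166419 (plus strand), chr19:46304487-46304786 (plus strand) and chr10:19015361-19015660 (minus strand). Capitals mark the kappaB matches.
Tnfrsf11a: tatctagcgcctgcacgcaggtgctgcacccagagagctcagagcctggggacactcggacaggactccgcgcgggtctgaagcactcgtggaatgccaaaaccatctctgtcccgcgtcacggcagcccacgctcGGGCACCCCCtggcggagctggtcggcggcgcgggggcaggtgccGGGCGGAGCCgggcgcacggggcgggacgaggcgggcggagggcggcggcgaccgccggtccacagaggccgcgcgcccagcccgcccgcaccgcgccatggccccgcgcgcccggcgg
Traf3: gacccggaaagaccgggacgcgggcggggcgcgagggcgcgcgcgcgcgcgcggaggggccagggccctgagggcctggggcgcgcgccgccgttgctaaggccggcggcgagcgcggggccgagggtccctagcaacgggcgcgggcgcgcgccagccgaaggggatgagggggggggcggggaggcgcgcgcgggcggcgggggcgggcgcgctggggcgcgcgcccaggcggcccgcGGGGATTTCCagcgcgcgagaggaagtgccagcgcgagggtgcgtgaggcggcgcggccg
Nfkb2: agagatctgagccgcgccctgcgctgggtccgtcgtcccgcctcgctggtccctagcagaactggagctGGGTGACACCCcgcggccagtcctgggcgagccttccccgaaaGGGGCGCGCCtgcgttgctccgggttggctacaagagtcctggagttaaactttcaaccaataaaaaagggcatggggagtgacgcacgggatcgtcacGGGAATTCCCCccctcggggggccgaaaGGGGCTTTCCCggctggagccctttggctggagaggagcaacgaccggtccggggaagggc
Tnfaip3: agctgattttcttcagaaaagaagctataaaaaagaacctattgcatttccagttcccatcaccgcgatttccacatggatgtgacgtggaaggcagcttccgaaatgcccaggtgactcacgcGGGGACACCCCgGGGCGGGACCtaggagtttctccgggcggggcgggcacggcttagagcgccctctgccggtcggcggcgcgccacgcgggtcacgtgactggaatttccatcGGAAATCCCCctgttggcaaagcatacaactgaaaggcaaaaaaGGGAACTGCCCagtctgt
The Nfkb2 window held 7 matches, some of them overlapping, of which GGGAATTCCC began at position -39 and GGGGCTTTCC at position -11, counted from the start. The Tnfaip3 window held 6, with GGAAATCCCC at position -12. The single kappaB match of Traf3, GGGGATTTCC, began at position -10. Its CG repeat began at position -213, in a stretch of overlapping matches, and again at position -63. Tnfrsf11a held 2 matches, at positions -114 and -69. A match says only that these letters are present, and binding was not measured here.

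In Aire-KO mTEChi most of the 10 genes were higher than in WT. Over PBS and spermidine, 8 of the 10 genes rose and 0 fell in Aire-KO, where 22.8% of all 18418 genes tested were called in either direction and 10.3% were called higher (edgeR quasi-likelihood test, Benjamini-Hochberg adjusted p below 0.05). The median log2 fold change of the 10 genes was 0.66, against -0.05 over all genes. The 8 genes were those of the receptors RANK and CD40, the adaptor TRAF6, NIK, p100 and RelB, and also of 2 that restrain the pathway, the decoy Tnfrsf11b and Traf3. The 2 that were not called were Ltbr and Tnfaip3. For all 8, the lowest Aire-KO library lay above the highest WT library, a pattern that 13% of all genes showed upward and 13.4% downward. With library totals as the only scaling, the calls over all genes were 1167 higher and 3222 lower, against 1890 higher and 2305 lower with TMM scaling, the median over all genes moved to -0.23, and of the 10 genes 7 were called higher and Ltbr lower (log2 -0.56, adjusted p = 0.0478, edgeR). Together the 10 genes took 0.282 to 0.314% of counts in Aire-KO mTEChi and 0.189 to 0.202% in WT mTEChi. In sorted cells taken in bulk, a larger share of cells expressing a gene and more of its RNA per cell cannot be told apart.

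Among the receptors, Tnfrsf11a encodes RANK, the main driver of mTEC growth and maturation (chr1:105780718-105847981, GRCm38). It had 232 and 169 CPM in Aire-KO PBS and 235 and 241 CPM in Aire-KO spermidine libraries, against 136 and 113 CPM in WT PBS and 149 and 124 CPM in WT spermidine libraries. Aire-KO PBS replicate 2 was the lowest Aire-KO library and still stood above every WT library. The fold change was 1.67 (log2 0.74, SE 0.11, adjusted p = 3.73e-04). Cd40 encodes a receptor that mTECs engage with activated T cells (chr2:165055627-165072948). It had 522 and 501 CPM in Aire-KO PBS and 397 and 443 CPM in Aire-KO spermidine libraries, against 293 and 249 CPM in WT PBS and 246 and 275 CPM in WT spermidine libraries, without overlap. Its fold change was 1.74 (log2 0.80, SE 0.11, adjusted p = 1.52e-04). Ltbr, the lymphotoxin beta receptor (chr6:125306571-125313885), behaved otherwise. It had 16.9, 21.4, 21.4 and 27.4 CPM in Aire-KO libraries, against 29.9, 20.9, 31.5 and 30.7 CPM in WT libraries, and the groups overlapped through WT PBS replicate 2. Its log2 change of -0.38 (SE 0.19) did not pass the test (adjusted p = 0.172, edgeR).

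Tnfrsf11b showed the largest fold change of the 10 genes. It encodes osteoprotegerin, a secreted decoy that binds RANK ligand and keeps it from RANK (chr15:54250619-54278484). It had 543 and 548 CPM in Aire-KO PBS and 473 and 433 CPM in Aire-KO spermidine libraries, against 194 and 246 CPM in WT PBS and 255 and 199 CPM in WT spermidine libraries. All Aire-KO libraries lay far above the WT libraries. The fold change was 2.22 (log2 1.15, SE 0.10, adjusted p = 3.69e-06).

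The adaptor genes Traf6 and Traf3 and the kinase gene Map3k14 were also called higher. Traf6, the adaptor that links RANK and CD40 to the canonical arm (chr2:101678429-101701669), had 230, 165, 168 and 187 CPM in Aire-KO libraries, against 116, 102, 134 and 113 CPM in WT libraries. Its fold change was 1.61 (log2 0.69, SE 0.13, adjusted p = 0.00213). Map3k14, which encodes NIK (chr11:103219762-103267472), had 92.0, 90.9, 94.7 and 107 CPM in Aire-KO libraries, against 62.6, 55.3, 65.9 and 65.3 CPM in WT libraries. Its fold change was 1.54 (log2 0.63, SE 0.15, adjusted p = 0.00724), and it shares 135 exonic bases with the noncoding gene 1700028N14Rik, so that a few of its reads are uncertain. Traf3, which holds NIK down (chr12:111166370-111267153), had 125, 138, 124 and 113 CPM in Aire-KO libraries, against 90.3, 92.2, 89.6 and 85.4 CPM in WT libraries. The WT libraries of Traf3 were closely spaced and none reached an Aire-KO library. Its fold change was the smallest of the 8, 1.40 (log2 0.48, SE 0.13, adjusted p = 0.0158), and it was lost in 4 of the 8 fits that left out 1 library (WT PBS 1, WT spermidine 2, Aire-KO PBS 2 or Aire-KO spermidine 1, adjusted p up to 0.066) and with library totals as the only scaling (adjusted p = 0.107).

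Both noncanonical transcription factors rose. Relb had 974 and 839 CPM in Aire-KO PBS and 890 and 874 CPM in Aire-KO spermidine libraries, against 479 and 516 CPM in WT PBS and 498 and 491 CPM in WT spermidine libraries (chr7:19606217-19629438). The WT libraries lay close to each other and far below all Aire-KO libraries, and the fold change was 1.80 (log2 0.85, SE 0.09, adjusted p = 1.26e-05). Nfkb2, which encodes p100 and p52 (chr19:46304320-46312385), had 690, 635, 595 and 564 CPM in Aire-KO libraries, against 399, 404, 425 and 408 CPM in WT libraries, again without overlap. Its fold change was 1.51 (log2 0.60, SE 0.09, adjusted p = 2.80e-04). On the opposite strand it shares 531 exonic bases with the noncoding gene AC114539.1 and 299 with Psd, and the protocol did not keep strand. Tnfaip3, the deubiquitinase A20 that shuts off the canonical arm (chr10:19000910-19015657), had 87.7, 61.2, 114 and 82.3 CPM in Aire-KO libraries, against 110, 57.7, 75.1 and 109 CPM in WT libraries. The groups were fully mixed, with a log2 change of -0.04 (95% interval -0.55 to 0.47, adjusted p = 0.918, edgeR).

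**Figure D2:**
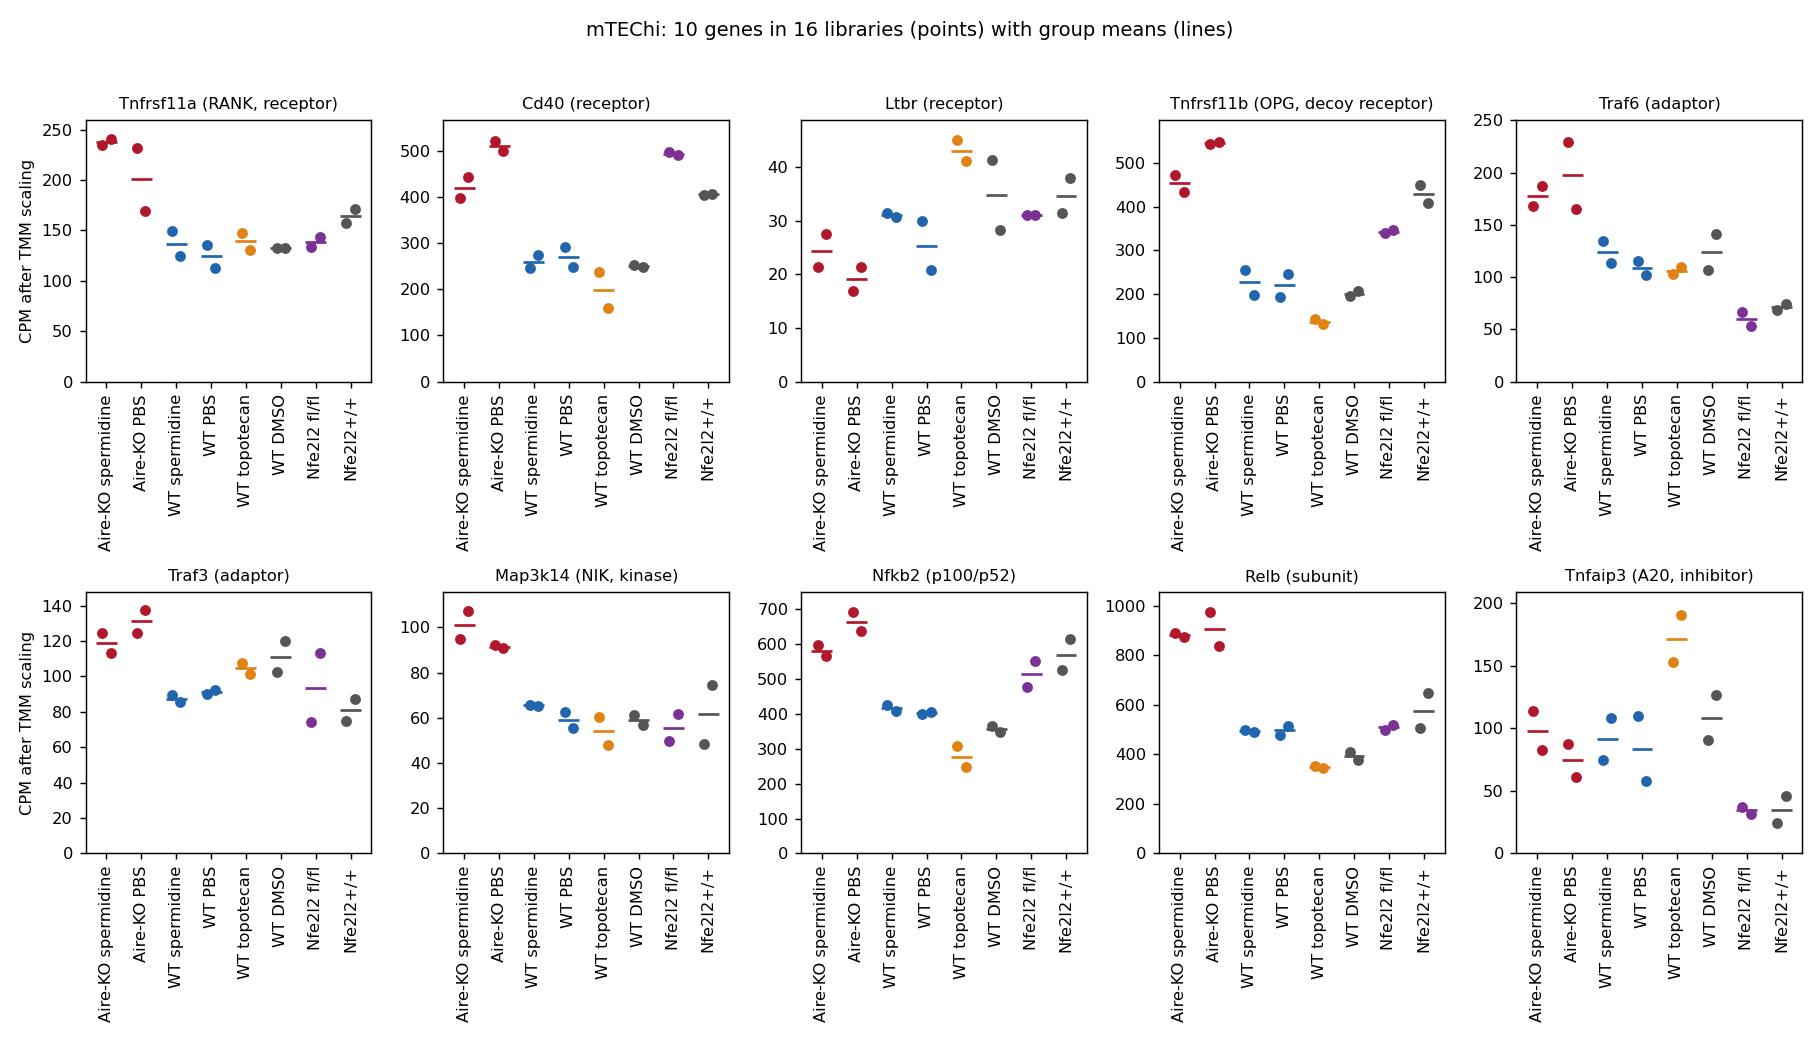
CPM after TMM scaling of the 10 genes in each of the 16 mTEChi libraries (points) with the mean of each group of 2 (lines), on linear axes from 0. For Tnfrsf11b all Aire-KO libraries lie between 433 and 548 CPM and the WT libraries with PBS or spermidine between 194 and 255 CPM, whereas for Tnfaip3 these groups are mixed.

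Each injection alone gave the same direction for the 8 genes with fewer calls. With PBS, 6 of the 10 genes rose in Aire-KO and 0 fell, against 10.3% of all genes called in either direction, 5.21% higher and 5.08% lower. They were Tnfrsf11a, Cd40, Tnfrsf11b, Traf6, Nfkb2 and Relb, and Map3k14 and Traf3 missed the threshold (log2 0.63, adjusted p = 0.0698, and log2 0.52, adjusted p = 0.0847, edgeR). With spermidine, 5 rose and 0 fell, against 9.11% of all genes called in either direction, 4.77% higher and 4.34% lower. They were Tnfrsf11a, Cd40, Tnfrsf11b, Nfkb2 and Relb, and Traf6 had a log2 change of 0.52 (adjusted p = 0.107, edgeR). With 2 libraries a group these calls were fragile, and so were the counts over all genes, which were 1896 in PBS and 636 to 1185 without any 1 of its 4 libraries, and 1678 in spermidine and 553 to 793 without any 1 of its 4. In PBS, Tnfrsf11a and Traf6 were lost without WT PBS 2 or without Aire-KO PBS 1 (adjusted p up to 0.21). In spermidine, Nfkb2 was lost without any 1 of the 4 libraries, Tnfrsf11a without WT spermidine 2 or Aire-KO spermidine 2, and Cd40 without WT spermidine 1 or Aire-KO spermidine 2 (adjusted p up to 0.186, edgeR), whereas Tnfrsf11b and Relb were called in each of these fits and under every other alternative run for either injection. The difference of the Aire-KO effect between spermidine and PBS passed the test for 0 of the 10 genes, as for 0% of all genes, with 0 of the 10 and 619 of all genes at an unadjusted p below 0.05, and 0 of the 10 with DESeq2. The differences ran from -0.33 to 0.29 on the log2 scale.

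Other genes of the pathway, counted in lists that hold none of the 10, went in both directions in Aire-KO mTEChi, where 10.3% of all genes tested were called higher and 12.5% lower. Of 13 inhibitors and deubiquitinases, 7 rose and 1 fell (median log2 0.51). Nfkbia, the IkB alpha protein that holds NF-kB dimers in the cytoplasm, averaged 2554 ± 82.4 CPM in Aire-KO and 1474 ± 77.6 CPM in WT (SD, n = 4 each), and the A20-binding protein Tnip2, the linear-ubiquitin protease Otulin and the IkB epsilon gene Nfkbie rose by log2 0.96, 0.98 and 0.53. Of 17 adaptors, ligases and kinases, 7 rose and 1 fell (median log2 0.20), with the ubiquitin ligases Birc3 (487 ± 26.1 CPM in Aire-KO, 274 ± 9.43 CPM in WT) and Birc2 and the adaptors Traf1 and Traf2 having the smallest p. With library totals alone the counts became 5 and 1 for the inhibitors and 3 and 2 for the adaptors, where Traf2 was no longer called. Among the other subunits Nfkb1 (p105 and p50) rose by log2 0.51, and Rel and Rela were not called. Other receptors went both ways, with Tnfrsf4 (OX40, log2 0.97) and Tnfrsf9 (4-1BB, log2 0.85) higher and Tnfrsf1a (log2 -0.61) and Tnfrsf19 (log2 -1.52) among the 3 of 8 that fell (median of the list log2 -0.56). No ligand was called (0 of 5 tested). Textbook NF-kB targets were split, with 6 higher and 5 lower of 18 tested (median log2 -0.14). The survival gene Bcl2l1 had 563 ± 26.6 CPM in Aire-KO and 280 ± 34.6 CPM in WT, and the adhesion molecule Icam1 and the chemokine Cxcl10 rose by log2 0.71 and 0.86. The chemokine Ccl20 fell to 31.9 ± 17.3 CPM in Aire-KO, against 174 ± 42.4 CPM in WT.

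Of the epithelial markers, those of mTECs mostly rose (median log2 0.71), while those of cortical epithelium went both ways (median log2 -0.28). The mTEC list includes Aire itself, at 4363 CPM in Aire-KO and 1691 CPM in WT on average. It also includes H2-Aa, at 4146 to 12602 CPM over all mTEChi libraries. The 8 mTEC markers, of which 6 rose and 1 fell, were summed at 19199 to 20651 CPM in Aire-KO and 11165 to 11696 CPM in WT mTEChi, and 6 markers of cortical epithelium, of which 1 rose and 2 fell, at 1094 to 1322 CPM in Aire-KO and 607 to 914 CPM in WT mTEChi, most of it Ccl25 in Aire-KO (826 to 883 CPM, against 344 to 438 CPM in WT). Of 5 B cell, 10 thymocyte, 4 endothelial and 6 erythroid markers, 0 of those tested were called in Aire-KO mTEChi, while 1 of 6 dendritic cell and macrophage markers rose and 2 of 6 fibroblast markers fell. B cell markers, which matter because B cells express Cd40, were summed at 72.9 to 157 CPM in Aire-KO and 76.8 to 118 CPM in WT mTEChi. Dendritic cell and macrophage markers were summed at 258 to 355 CPM in Aire-KO and 199 to 356 CPM in WT mTEChi. No marker list was at 0 in any library. The part of these markers in the change of the 10 genes was not tested.

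In Aire-GFP+ mTECs fewer of the 10 genes were called than in mTEChi. Here 4 of the 10 genes rose and 0 fell in Aire-KO (edgeR quasi-likelihood test, adjusted p below 0.05). Of all 17923 genes tested, 41.3% were called in either direction, 19% higher and 22.3% lower. Counted in either direction, 4 of 10 was no larger a share than the 41.3% of all genes. Counted as higher only, it was a larger share than the 19%, and neither difference in share was tested. Without Aire-KO replicate 2, 4785 of all genes were called, against 7410 with it. The 4 were Tnfrsf11a, Cd40, Traf6 and Map3k14. The median log2 fold change of the 10 genes was 0.09, against -0.12 over all genes. The calls depended on how library sizes were scaled. With library totals alone, the calls over all genes were 1591 higher and 6250 lower, against 3410 higher and 4000 lower with TMM scaling (trimmed mean of M-values). The median over all genes moved to -0.51 and that of the 10 genes to -0.30, Tnfrsf11a and Map3k14 were called higher, and Tnfrsf11b, Ltbr and Relb were called lower.

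Tnfrsf11a changed most, with 213 and 218 CPM in Aire-KO, against 112, 89.6 and 88.3 CPM in WT. The WT libraries all lay far below both Aire-KO libraries, and the fold change was 2.23 (log2 1.16, SE 0.13, adjusted p = 4.27e-04). Cd40 had 774 and 685 CPM in Aire-KO, against 534, 453 and 421 CPM in WT, a fold change of 1.55 (log2 0.64, SE 0.12, adjusted p = 0.0045). Map3k14 had 85.1 and 73.0 CPM in Aire-KO, against 39.1, 36.5 and 50.1 CPM in WT, a fold change of 1.88 (log2 0.91, SE 0.17, adjusted p = 0.00423). Traf6 had 72.9 and 64.6 CPM in Aire-KO, against 33.2, 41.5 and 46.2 CPM in WT. Its fold change of 1.70 (log2 0.77, SE 0.17, adjusted p = 0.00871) was not called without Aire-KO replicate 1 (adjusted p = 0.058) or with library totals alone (adjusted p = 0.126), where Cd40 was not called either (adjusted p = 0.136). The groups did not overlap for these 4 genes and for Traf3, with Aire-KO higher, and for Ltbr, with Aire-KO lower, patterns that 29.3% and 34.6% of all genes showed.

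The 6 others did not pass the test. Tnfrsf11b had 222 and 209 CPM in Aire-KO, against 335, 207 and 236 CPM in WT, so that the lowest WT library lay under both Aire-KO libraries (log2 -0.27, 95% interval -0.70 to 0.17, adjusted p = 0.295, edgeR). Relb had 327 and 308 CPM in Aire-KO, against 293, 364 and 379 CPM in WT (log2 -0.12, 95% interval -0.42 to 0.17). Nfkb2 had 219 and 252 CPM in Aire-KO, against 187, 345 and 341 CPM in WT. WT replicate 1 was far below the other WT libraries of Nfkb2, and the log2 change of -0.31 (adjusted p = 0.347) became -0.54 without it and was called lower (adjusted p = 0.00763, edgeR). Traf3 had 71.2 and 62.1 CPM in Aire-KO, against 51.4, 47.8 and 61.7 CPM in WT (adjusted p = 0.148, edgeR). Ltbr had 6.90 and 7.29 CPM in Aire-KO, against 9.40, 9.61 and 10.8 CPM in WT, from 58 to 114 counts a library (log2 -0.48, adjusted p = 0.208, edgeR). Tnfaip3 had 16.9 and 19.4 CPM in Aire-KO, against 23.0, 15.9 and 21.6 CPM in WT (log2 -0.15, adjusted p = 0.641, edgeR).

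**Figure D3:**
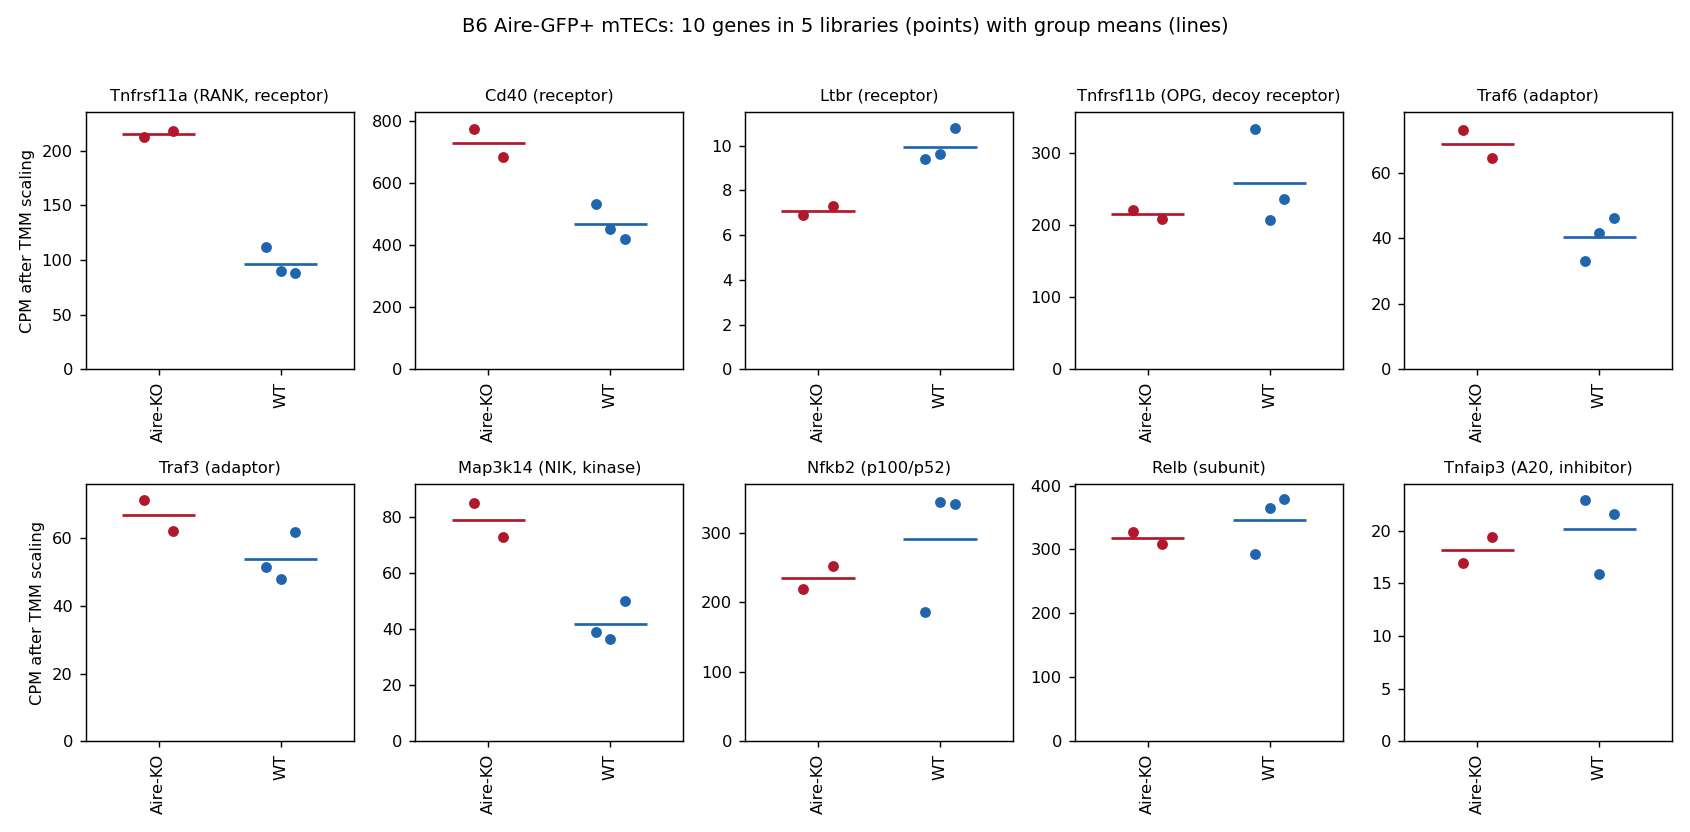
CPM after TMM scaling of the 10 genes in the B6 Aire-GFP+ libraries (points, 2 Aire-KO left and 3 WT right) with group means (lines), on linear axes from 0. The groups are apart for Tnfrsf11a, with 213 and 218 CPM in Aire-KO and 88.3 to 112 CPM in WT, and mixed for Tnfrsf11b and Relb.

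Each of the 4 called genes had TPM assigned to models that code for no protein in 4 or 5 of the 5 libraries. For Cd40 the share was 29.3 and 24.7% in Aire-KO, against 28.8, 29.0 and 29.1% in WT, and for Traf6 it was 0 and 0.56% in Aire-KO, against 1.59, 19.2 and 4.99% in WT. For Tnfrsf11a, models marked as retained introns took 47.5 and 43.4% of the TPM in Aire-KO, against 53.7, 47.5 and 55.2% in WT, with the groups near each other. For Map3k14, noncoding models took 16.6 and 5.46% in Aire-KO, against 31.3, 40.3 and 34.2% in WT, without overlap. Most of that gap came from the short model Map3k14-202, with 11.1 and 1.73% of the TPM in Aire-KO and 24.6, 31.0 and 26.3% in WT. These shares are estimates by kallisto from shared reads, depth per model is not known, and their difference was not tested. The calls of all 4 genes held when the effective transcript length of each library entered the fit.

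In Aire-GFP+ cells these lists were counted against the 19% of all genes called higher and the 22.3% called lower. Of 13 inhibitors and deubiquitinases 6 rose and 0 fell (median log2 0.30). Otulin had 241 ± 5.57 CPM in Aire-KO (SD, n = 2) and 45.6 ± 1.13 CPM in WT (SD, n = 3), a fold change of 5.28 (log2 2.40, SE 0.11, adjusted p = 1.71e-05), and Tnip3, Tnip2 and Nfkbia rose by log2 1.55, 1.06 and 0.80. Of 17 adaptors, ligases and kinases 8 rose and 2 fell (median log2 0.39), with Birc2 (607 ± 8.25 CPM in Aire-KO, 285 ± 18.0 CPM in WT), Traf2 and the kinase Map3k7 higher and its partner Tab1 lower. Nfkb1 rose by log2 1.01 and Rela fell by 0.48 on the log2 scale. Of 8 other receptors 2 were called, a smaller share than the 41.3% of all genes, as Tnfrsf4 rose (log2 1.65) and Tnfrsf13c, the BAFF receptor of B cells, fell (log2 -3.73). Of 4 ligands tested, Tnfsf14 was called lower, with 0 counts in both Aire-KO libraries and 1.32 to 7.75 CPM in WT. Of 20 target genes 3 rose and 7 fell. Cxcl10 rose (log2 1.00), whereas Cxcl13, the adhesion molecule Vcam1 and Bcl2l1 fell (log2 -1.75, -0.86 and -0.96). With library totals alone the inhibitors had 5 higher and 3 lower, the adaptors 2 higher and 4 lower (both medians turned negative, -0.10 and -0.01, and Traf2 was not called), and the targets 2 higher and 11 lower. The mTEC markers were summed at 23121 to 26185 CPM in Aire-KO and 12668 to 12862 CPM in WT Aire-GFP+ cells. Of the 8, 3 were called higher and 2 lower, with a median log2 of 0.01. The largest part of the sum was H2-Aa, lowest in WT (8297 CPM) and highest in Aire-KO (19826 CPM). Of the 6 cortical markers 2 were called higher and 3 lower, and their sum of 2351 to 2358 CPM in Aire-KO and 684 to 779 CPM in WT was mostly the chemokine Ccl25, at 2252 to 2263 CPM in Aire-KO and 541 to 649 CPM in WT. Cxcl12 fell, at 2.31 CPM in Aire-KO and 17.9 CPM in WT (log2 -2.96, adjusted p = 0.00118, edgeR). Among other cells, B cell markers were summed at 80.8 to 94.4 CPM in Aire-KO and 43.3 to 51.8 CPM in WT, and fibroblast markers at 252 to 329 CPM in Aire-KO and 71.1 to 113 CPM in WT, while dendritic cell and macrophage markers were at 66.0 to 67.9 CPM in Aire-KO and 91.0 to 141 CPM in WT. Of these lists, 1 B cell marker was called higher and 1 lower, 2 fibroblast markers higher and 2 lower, and 1 dendritic cell or macrophage marker higher and 3 lower. The list medians were log2 -0.86 for B cells, -1.64 for fibroblasts and -1.09 for dendritic cells and macrophages. Single genes weighed heavily in the Aire-KO sums, where Cd79b of the B cell list reached 77.0 CPM and Dcn of the fibroblast list 313 CPM. The part of these other cells in the changes was not tested.

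The effect of Aire-KO was then compared between the sorts in a single fit of all 21 libraries over 17589 shared genes. Of the 10 genes, 3 had a lower effect in Aire-GFP+ cells than in mTEChi and 0 a higher one, where 13.7% of all genes were called in either direction, 8.08% higher and 5.59% lower. Tnfrsf11b differed most, by -1.33 on the log2 scale (SE 0.21, adjusted p = 5.07e-04), followed by Relb (-0.88, SE 0.16, adjusted p = 0.00129) and Nfkb2 (-0.82, SE 0.24, adjusted p = 0.0315, all edgeR). Tnfrsf11b and Relb were called under both other scalings and without any 1 of the 13 libraries concerned, whereas Nfkb2 was lost in 10 of these 13 fits (adjusted p up to 0.149), kept only without Aire-GFP+ WT 1, Aire-KO PBS 1 or Aire-KO PBS 2. Tnfrsf11a had a difference of 0.51 (SE 0.18, adjusted p = 0.075), and the other 6 genes had differences from -0.08 to 0.38 with adjusted p of 0.332 or more. The Aire-GFP+ cells were untreated and were counted by kallisto, the mTEChi cells were injected and were counted by featureCounts, so that the sort, the injection and the counting program cannot be told apart.

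**Figure D4:**
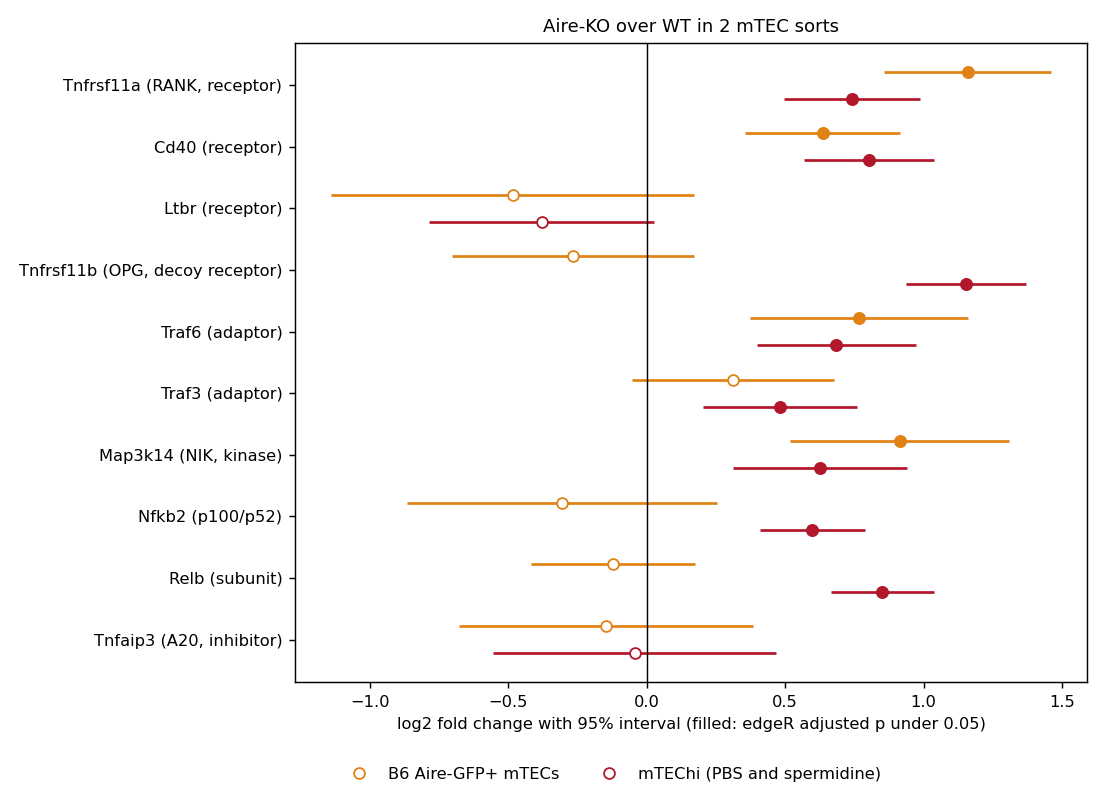
Log2 fold change of Aire-KO over WT with its 95% interval for the 10 genes, in B6 Aire-GFP+ mTECs (upper mark of each pair) and in mTEChi over both injections (lower mark), where filled points passed edgeR at an adjusted p below 0.05. The pairs of intervals lie apart for Tnfrsf11b (-0.27 and 1.15), Relb (-0.12 and 0.85) and Nfkb2 (-0.31 and 0.60).

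Spermidine, a polyamine, changed none of the 10 genes detectably. In Aire-KO mTEChi 0 of 10 were called, where 0.00543% of all genes were (1 gene), in WT mTEChi 0 of 10 against 0% of all genes, and over both genotypes 0 of 10 against 0% (edgeR). In these comparisons 0 of the 10 genes had an unadjusted p below 0.05 and DESeq2 called 0 of the 10. Over both genotypes the log2 changes ran from -0.17 for Cd40 to 0.31 for Ltbr. The 95% intervals of all 10 genes lay between -0.41 and 0.77, the widest being that of Tnfaip3 (-0.25 to 0.77) and the narrowest that of Relb (-0.21 to 0.16). An effect on Relb as large as that of Aire-KO therefore lay outside its interval, while for Tnfaip3 the interval left room for a change of up to 0.77 on the log2 scale.

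Topotecan, an inhibitor of topoisomerase 1, left 0 of the 10 genes past the threshold in WT mTEChi, where 0.652% of all genes were called (120 genes) and 0.456% were called lower (edgeR), and 2 of the 10 had an unadjusted p below 0.05, as had 2566 of all 18418 genes. Aire itself fell, with 819 and 641 CPM with topotecan, against 1500 and 1180 CPM with DMSO (log2 -0.88, SE 0.14, adjusted p = 0.0125). Tnfrsf11b had 143 and 131 CPM with topotecan, against 196 and 206 CPM with DMSO. Its log2 change of -0.55 (SE 0.14) had an adjusted p of 0.0972 in edgeR, and it was called lower by DESeq2 (adjusted p = 0.0154) and without the filter on low counts (adjusted p = 0.00522). Both of these settings also called more than 120 of all genes, and a fit of that experiment alone called fewer. Nfkb2 had 306 and 248 CPM with topotecan, against 364 and 348 CPM with DMSO (log2 -0.36, adjusted p = 0.204, edgeR). Tnfaip3 had 153 and 191 CPM with topotecan, against 90.3 and 127 CPM with DMSO (log2 0.66, 95% interval -0.03 to 1.35, adjusted p = 0.381, edgeR). The other 7 genes had log2 changes from -0.33 (Cd40) to 0.31 (Ltbr). Of the lists, 1 gene was called, the chemokine Cxcl10, at 135 ± 32.0 CPM with topotecan and 264 ± 1.85 CPM with DMSO (SD, n = 2 each). Fibroblast markers were summed at 140 and 1353 CPM with topotecan and 325 and 712 CPM with DMSO, and 0 of the 6 were called. Whether these libraries differed in their content of other cells was not tested.

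Between Foxn1-cre mice with Nfe2l2 fl/fl and with Nfe2l2+/+, the gene of the stress-response factor NRF2, 0 of the 10 genes were called, as were 0% of all genes (edgeR), with 0 of the 10 by DESeq2 and 1 of the 10 at an unadjusted p below 0.05, as were 973 of all 18418 genes. Nfe2l2 RNA had 105 and 86.6 CPM in Nfe2l2 fl/fl, against 90.7 and 91.4 CPM in Nfe2l2+/+, and a count over the whole gene does not check the removal of floxed exons. Tnfrsf11b had 339 and 346 CPM in Nfe2l2 fl/fl, against 450 and 408 CPM in Nfe2l2+/+ (log2 -0.33, 95% interval -0.62 to -0.03, adjusted p = 0.888, edgeR). Cd40 had 499 and 490 CPM in Nfe2l2 fl/fl, against 405 and 407 CPM in Nfe2l2+/+ (log2 0.28, adjusted p = 0.988, edgeR). For the other 8 genes the log2 changes ran from -0.25 to 0.21.

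**Figure D5:**
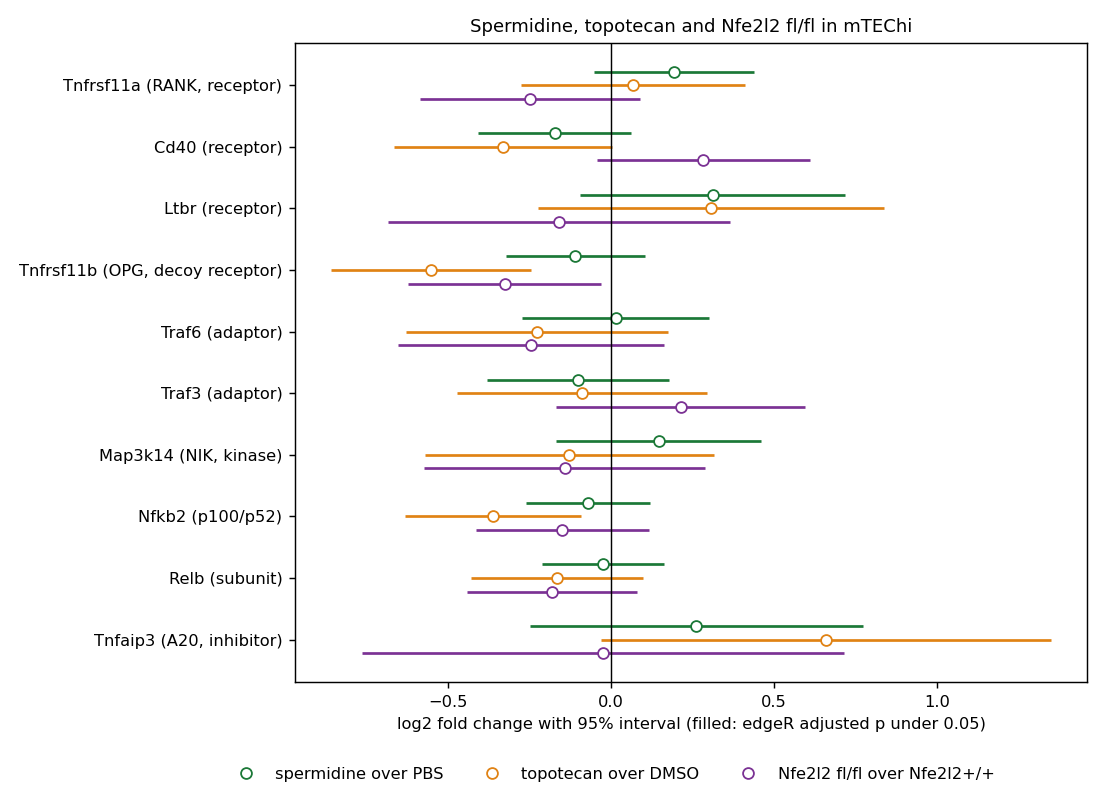
Log2 fold change with its 95% interval of the 10 genes in mTEChi for spermidine over PBS (both genotypes), topotecan over DMSO and Nfe2l2 fl/fl over Nfe2l2+/+, where no point passed edgeR at an adjusted p below 0.05. The estimates lie between -0.55 and 0.66.

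Across the 8 mTEChi groups the genes differed in where they were high, also among the groups without Aire-KO. Tnfrsf11b averaged 545 CPM in Aire-KO PBS, 453 CPM in Aire-KO spermidine, 429 CPM in Foxn1-cre Nfe2l2+/+, 342 CPM in Foxn1-cre Nfe2l2 fl/fl, 227 CPM in WT spermidine, 220 CPM in WT PBS, 137 CPM in WT topotecan and 201 CPM in WT DMSO. Aire-KO spermidine and Nfe2l2+/+ overlapped, as did WT spermidine, WT PBS and WT DMSO. Cd40 was likewise near the Aire-KO level in both Foxn1-cre groups, at 494 CPM in Nfe2l2 fl/fl and 406 CPM in Nfe2l2+/+, against 250 to 271 CPM in WT PBS, WT spermidine and WT DMSO. Traf6 and Tnfaip3 went the other way. Traf6 averaged 60.1 and 71.1 CPM and Tnfaip3 34.5 and 35.0 CPM in the Nfe2l2 fl/fl and Nfe2l2+/+ groups, the lowest of the 8 groups, while the highest group of Tnfaip3 was WT topotecan at 172 CPM. Relb and Nfkb2 were lowest in WT topotecan (350 and 277 CPM). The 3 experiments share no group, so genotype, injection and experiment cannot be told apart in these levels, and no test was made across them.

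Over the 8 group means of log2 CPM, some members followed each other more closely than others, as a description of 8 points that share libraries. Pearson's r ran from -0.85 between Ltbr and Relb to 0.99 between Tnfrsf11b and Nfkb2. It was 0.95 between Tnfrsf11b and Cd40, 0.91 between Tnfrsf11a and Map3k14, and -0.73 between Cd40 and Tnfaip3. The groups came from separate experiments, so genotype and experiment cannot be told apart in these values. Among 13977 genes of at least 5 CPM on average, those whose group means were most like Tnfrsf11a were Gm2065, Cnnm2 and Slamf1 (r of 0.987, 0.984 and 0.966). For Cd40 they were Gm10851, Glod4 and Ppp2r2a (r of 0.995, 0.992 and 0.990), and for Relb they were Il13, Cacng8 and Ttll9 (r of 0.995, 0.994 and 0.993).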

How the data were processed

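RNA-seq of sorted mouse mTECs was used from 21 of the 30 samples of the series; 6 NOD and 3 F1 samples were not analysed here. For mTEChi the authors deposited whole-number counts per gene, made with STAR and featureCounts on mm10 per the submitters' processing notes. For B6 Aire-GFP+ cells the authors deposited estimated counts and TPM per transcript, made with kallisto per the submitters' processing notes and the file headers. The labels do not state the strand setting.

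Estimated counts were summed to GENCODE M21 gene symbols (116816 of 118489 transcripts matched; the rest held 0.541 to 0.578% of counts) and rounded. edgeR 4.0.16 (R 4.3.3) was run with filterByExpr, TMM scaling and the quasi-likelihood test, in 1 fit of 16 mTEChi libraries and 1 fit of 5 Aire-GFP+ libraries, with Benjamini-Hochberg adjustment over all genes tested and a threshold of 0.05. CPM values use TMM-scaled library sizes. The difference between the sorts came from 1 joint fit of all 21 libraries, chosen after seeing the data. Alternatives were DESeq2 1.42.0, DESeq2 size factors, library totals alone, no filter, a replicate block, the experiment alone, an effective-length offset and each library left out. The scripts were tested on simulated data.

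All 10 genes were named in every comparison. From the pathway lists, at most 4 genes that passed the test were named per list and comparison, by smallest p. The members and lists were chosen with earlier results of these data known. Reads without molecular identifiers are not independent molecules. Replicate libraries differed by more than counting noise (chi-square per degree of freedom 3.05 to 19.7).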

Additional observations from a re-analysis of the deposited data

Results flagged for a closer look

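For 3 of the 10 genes the effect of Aire-KO differed between the sorts in the joint fit of 21 libraries. The log2 effect in Aire-GFP+ cells minus that in mTEChi was -1.3294 for Tnfrsf11b, -0.8834 for Relb and -0.8158 for Nfkb2. The Nfkb2 difference was called in 3 of the 13 fits without 1 library, whereas those of Tnfrsf11b and Relb were called in all 13. The sort, the injection and the counting program cannot be told apart in these differences.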

How the results depend on the processing

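No result changed sign past the threshold. Of the 10 genes, 5 were called in Aire-KO mTEChi with spermidine, against 3 with library totals alone and 2 to 4 without 1 library. With topotecan 0 were called, against 1 (Tnfrsf11b, lower) by DESeq2 and 1 without the low-count filter; over all genes 120 were called, against 415 by DESeq2, 1006 without the filter and 1 in the experiment alone. Without 1 library the counts were 4 to 6 in PBS, 7 to 8 over both injections, 3 to 5 in Aire-GFP+ cells and 2 to 4 for the difference between the sorts, where the count over all genes was 2404, and 1423 without Aire-GFP+ Aire-KO 2. Over all genes, leaving out 1 library gave 636 to 1185 calls in PBS (1896 with all), 553 to 793 in spermidine (1678) and, without Aire-KO 2, 4785 in Aire-GFP+ cells (7410). Deviations of same-numbered libraries were weakly correlated (-0.00787 to 0.0941), and with so few libraries this does not settle whether the numbers pair them. With the replicate block 8 of the 10 genes were called in PBS, 6 in spermidine, 8 over both and 4 in Aire-GFP+ cells. In the same order, that block gave 1989, 1760 and 4120 calls over all 18418 mTEChi genes and 6702 over all 17923 Aire-GFP+ genes. Where an arm was left with 1 library, it was assumed to vary like the other groups. Depth limits Ltbr, with 58 to 114 counts in Aire-GFP+ cells and 39 to 89 in mTEChi with PBS or spermidine. With 2 libraries a group, a p that misses the threshold does not show that values did not differ.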
